A study of Mus musculus with 2 samples.

Results

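The Hox cluster genes are the protein-coding mouse genes whose symbol is Hoxa, Hoxb, Hoxc or Hoxd followed by a number. All 39 of them, among 21792 protein-coding genes in the RefSeq gene table of GRCm38.p6 (mm10), entered the account: 11 in Hoxa on chromosome 6, 10 in Hoxb on chromosome 11, 9 in Hoxc on chromosome 15 and 9 in Hoxd on chromosome 2. The rule takes them by symbol and uses no peak position. Binding of Gata1, the zinc finger factor of red cell development, was read from 4135 called ChIP-seq peaks, and 3 of these had a midpoint in a Hox cluster or within 100 kb of its outermost genes. The peaks came from 1 Gata1 ChIP library, made with a rabbit antibody to Gata1, and the series also lists 1 input library, whose antibody field names rabbit IgG and which was not analysed here. Both libraries came from embryoid bodies, aggregates of differentiating mouse embryonic stem cells, after 5 days of culture towards blood. The sorted cells carried a Runx1-ires-GFP and a Gata1::mCherry reporter and were positive for both, and the series calls them primitive erythroid. Nuclei pooled from several sorts entered each ChIP, so the cells behind the peak list were a mixture of sorts. Peak positions say nothing of RNA, so the sorted cell type could not be checked against expression markers.

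Hox genes encode homeodomain transcription factors that set position along the body axis, and the mammalian genes lie in 4 clusters that arose by duplication. Genes in the same place in different clusters form paralogue groups, numbered from the end of the cluster that is switched on first and most anteriorly. In blood, Hoxb4 is known for expanding stem cells when overexpressed, and Hoxa9 and Hoxa10 for supporting stem and progenitor cells and for their part in leukaemia. Polycomb proteins hold Hox genes silent, MLL and its partners keep them active, and TALE proteins such as Meis and Pbx bind DNA together with Hox proteins. The clusters also hold microRNA genes of the miR-10 and miR-196 families, which are known to target Hox transcripts.

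Only 2 called Gata1 peaks lay inside the clusters, 1 in Hoxb and 1 in Hoxd, and each covered sequence just after the annotated start of a Hox gene. The first, at chr11:96318418-96318817, lay in Hoxb4, and the second, at chr2:74704702-74705101, lay in Hoxd8. No peak was called inside Hoxa or Hoxc, or within 100 kb of either. The third peak of the region, at chr2:74862206-74862605, lay 97.3 kb above Hoxd1, inside Mtx2, a gene for a mitochondrial import protein. Just outside the 100 kb limit, the nearest further peak lay 106.6 kb below the Hoxa cluster and held no annotated gene at its midpoint. The list gives no height or score, so a site was either called or not called, and read depth is unknown.

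**Figure D1:**
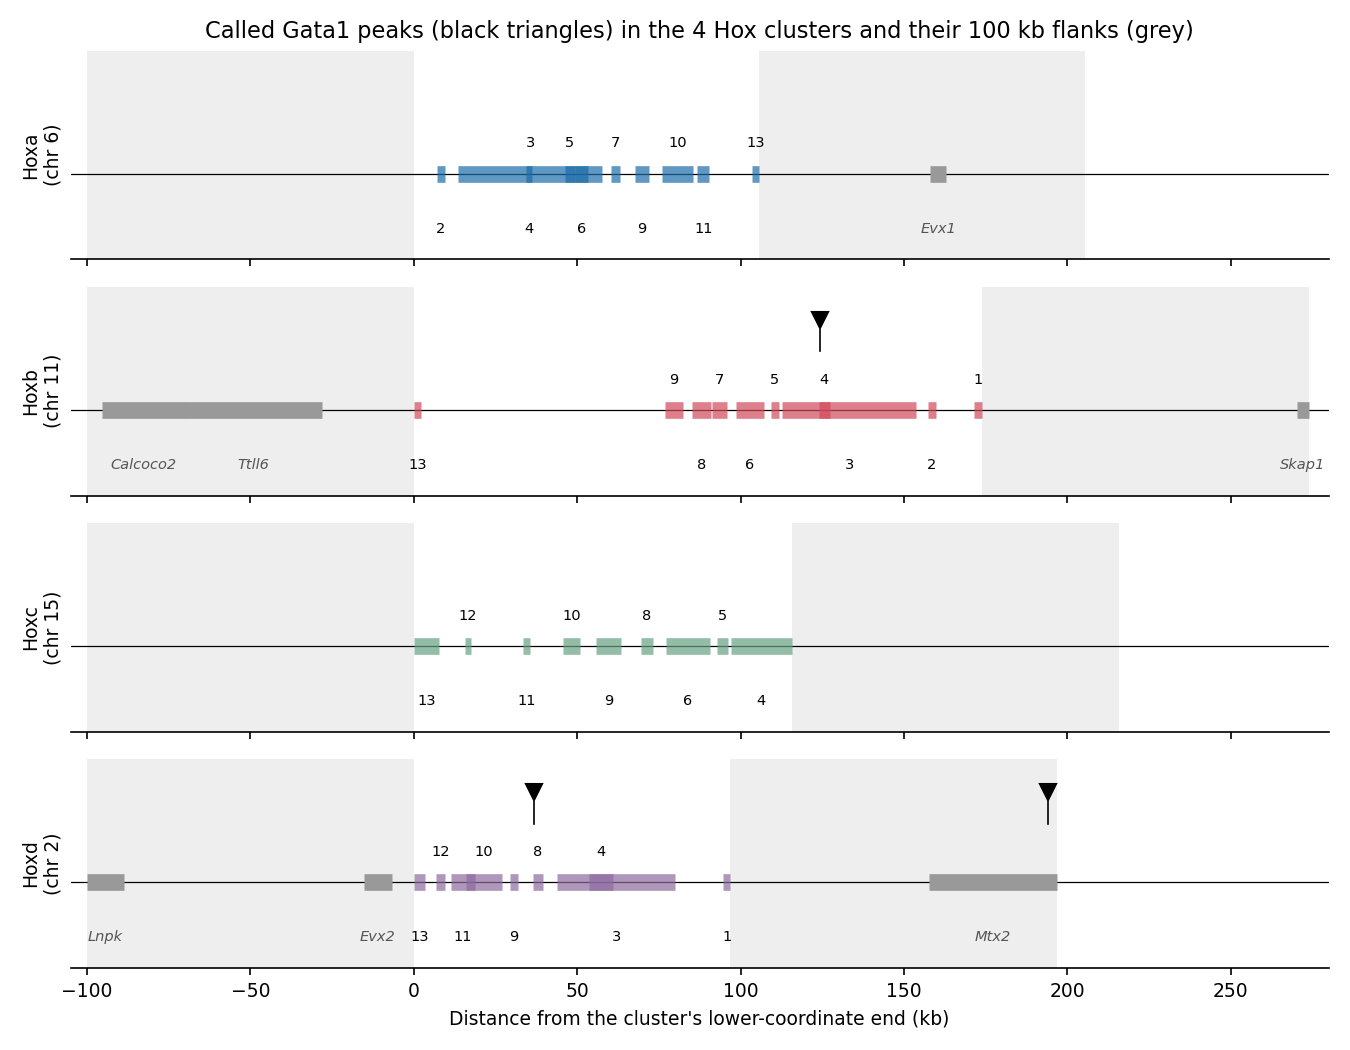
Each row shows 1 Hox cluster, with distance in kb from its lower-coordinate end on the x axis, Hox genes as coloured bars with their paralogue number, other protein-coding genes of the flanks as grey bars (1 Hoxa gene is not drawn), the 100 kb flanks shaded and called Gata1 peaks as black triangles. The Hoxb row has 1 peak, at Hoxb4, the Hoxd row has 2, at Hoxd8 and in Mtx2, and the Hoxa and Hoxc rows have none.

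The sequences around the starts of Hoxb4 and Hoxd8 are given because these are the genes under the peaks. Hoxd4 and Hoxb8, the paralogues of each in the other cluster, are given beside them as genes without a peak. For Hoxb4, Hoxd8 and Hoxd4 the RefSeq start entry is the first base of the annotated gene. The Hoxb8 entry instead lies inside the annotated gene (chr11:96279401-96285325), so its stretch is internal and not a like comparison. Each stretch of 300 bases runs from 250 bases before the RefSeq start to 50 bases from it on, read 5′ to 3′ in the direction of transcription. Capitals mark the GATA motifs searched on both strands. The longer motif is GATAA or GATAG with an A or a T directly before it, the form that GATA factors are known to prefer. The shorter motif is GATAA after any base, so it overlaps the longer one wherever that ends in AA.
Hoxb4 promoter, chr11:96318017-96318316 (+): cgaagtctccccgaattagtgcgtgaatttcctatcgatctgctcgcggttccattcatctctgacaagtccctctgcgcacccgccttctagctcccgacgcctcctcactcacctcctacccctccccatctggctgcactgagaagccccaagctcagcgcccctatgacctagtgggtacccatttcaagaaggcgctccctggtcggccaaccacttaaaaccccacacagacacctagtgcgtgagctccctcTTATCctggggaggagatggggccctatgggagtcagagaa
Hoxd8 promoter, chr2:74704365-74704664 (+): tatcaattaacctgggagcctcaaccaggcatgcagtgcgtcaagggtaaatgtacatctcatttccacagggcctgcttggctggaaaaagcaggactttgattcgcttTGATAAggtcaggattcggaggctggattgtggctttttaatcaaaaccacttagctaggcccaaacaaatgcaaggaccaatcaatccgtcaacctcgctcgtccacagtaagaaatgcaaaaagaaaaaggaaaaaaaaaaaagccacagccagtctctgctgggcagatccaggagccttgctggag
Hoxd4 promoter, chr2:74721728-74722027 (+): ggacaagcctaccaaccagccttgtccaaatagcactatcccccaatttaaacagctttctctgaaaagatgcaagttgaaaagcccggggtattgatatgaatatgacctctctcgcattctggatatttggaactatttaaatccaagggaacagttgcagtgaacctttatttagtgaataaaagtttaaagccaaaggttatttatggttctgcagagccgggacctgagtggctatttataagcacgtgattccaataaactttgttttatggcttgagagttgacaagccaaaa
Hoxb8 promoter, chr11:96281655-96281954 (+): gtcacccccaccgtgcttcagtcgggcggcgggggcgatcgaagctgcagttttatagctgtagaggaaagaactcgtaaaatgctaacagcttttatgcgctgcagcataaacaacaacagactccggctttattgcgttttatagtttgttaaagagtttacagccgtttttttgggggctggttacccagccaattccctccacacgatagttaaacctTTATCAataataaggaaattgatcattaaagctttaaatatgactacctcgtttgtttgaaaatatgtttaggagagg

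The Hoxd8 stretch held 1 TGATAA, from 140 to 135 bases before the start (first base at -140, last at -135, with the start base as 0). The Hoxb4 stretch held no longer motif and 1 GATAA on the opposite strand, at 9 to 13 bases after the start. The Hoxd4 stretch held neither kind. The Hoxb8 stretch held TGATAA on the opposite strand, from -28 to -23 relative to its internal start entry, though no peak was called there. Of the 24 RefSeq start entries of 22 Hox genes, 7 (29.2%) held a longer motif, against 5533 of 21263 entries of protein-coding genes (26.0%). For GATAA the shares were 29.2% of Hox entries, also 7, against 22.5% of protein-coding entries. The 7 Hox entries with a longer motif were those of Hoxd12, Hoxd10, Hoxd8, Hoxa7, Hoxa9, Hoxb8 and 1 of the 2 of Hoxa10. A match describes letters only, and the sequence under the peaks themselves was not used here.

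The printed stretches end before the peaks begin. In Hoxb4 the peak ran from 151 to 550 bases after the start, with its midpoint at 350 bases. In Hoxd8 it ran from 87 to 486 bases after the start, with its midpoint at 286 bases. Gaps of 101 and 37 bases separated the printed stretch from the peak in Hoxb4 and Hoxd8. Both genes are short, 3372 bases for Hoxb4 and 3319 bases for Hoxd8, so each peak lay in the first part of the gene. The Hoxb4 peak also fell within the annotated span of Hoxb3, and the Hoxd8 peak within the long noncoding RNA gene Gm38462.

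**Figure D2:**
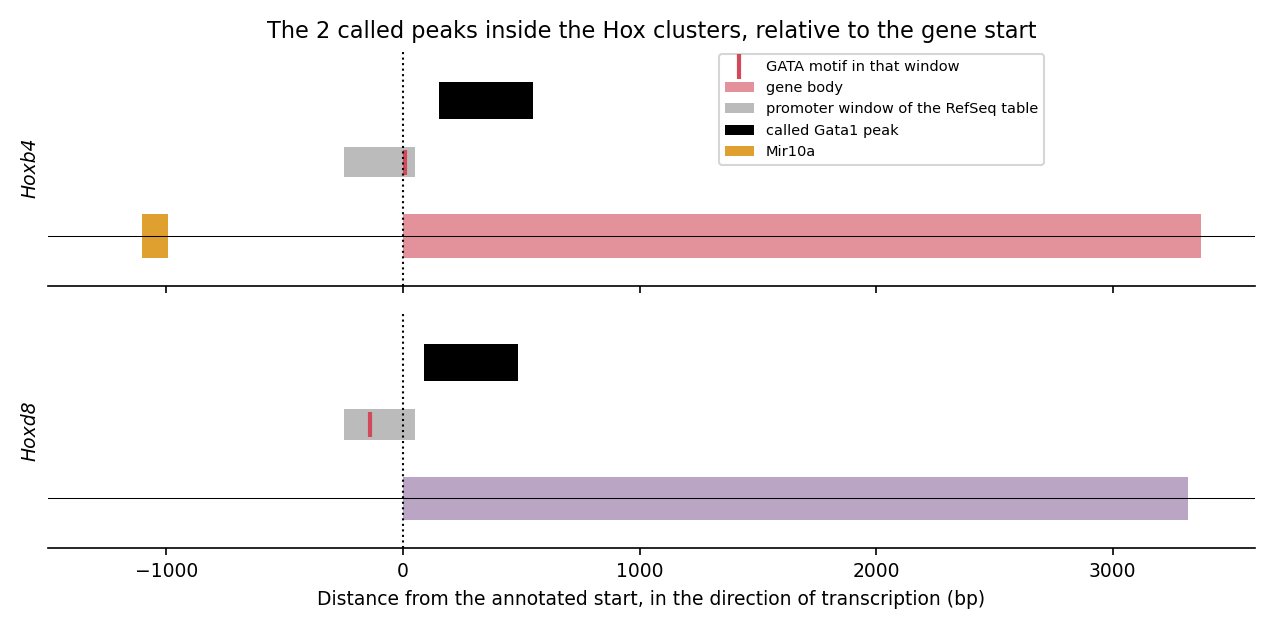
The x axis gives distance in bp from the annotated start of Hoxb4 (upper) or Hoxd8 (lower), in the direction of transcription, with the gene body as a coloured bar, the 300-base RefSeq stretch in grey, motif matches in it as red ticks and the called peak in black. Both peaks lie after the start, with midpoints at 350 bases in Hoxb4 and 286 bases in Hoxd8, and the tick in Hoxb4 is the shorter GATAA.

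Position just after a listed start was found for a small share of the peaks as a whole. That share was not compared with the part of the genome that such positions make up, so it cannot be called low or high. Starts were listed for 17492 of 21792 protein-coding genes, so peaks at unlisted starts are missed. Of 3994 peaks on chromosomes with RefSeq start entries, 703 (17.6%) had a midpoint within 1 kb of a protein-coding start and 196 (4.91%) had it 0 to 500 bases after the nearest one. A further 273 (6.84%) had it 1 to 500 bases before. Counted by gene, 2 of 22 Hox genes with a start entry (9.09%) had a peak midpoint within 1 kb of a start, against 4.26% of 17492 protein-coding genes. The 2 genes are Hoxb4 and Hoxd8. The 22 genes leave out most of Hoxb and Hoxc, so this share does not stand for all 39 Hox genes.

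With a window of 10 kb around the gene, Hox genes had a peak about as often as protein-coding genes in general. Gene length, which widens the stretch searched, was not matched. For 6 of 39 Hox genes a peak midpoint fell inside the gene or no more than 10 kb from it (15.4%, 95% Wilson interval 7.25 to 29.7%), against 16.6% of all protein-coding genes. The interval covers counting only, and neighbouring Hox genes share peaks: the 6 genes were served by the same 2 peaks. The Hoxb4 peak served Hoxb4 and Hoxb3, and the Hoxd8 peak served Hoxd8, Hoxd9, Hoxd10 and Hoxd3. Hoxd9 lay 4.69 kb from it, Hoxd3 7.09 kb and Hoxd10 9.79 kb. Without the Hoxd8 peak, 2 of the 39 genes had a peak within 10 kb, and without the Hoxb4 peak 4 did. No chance test was made of these shares.

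The count followed the window closely. With 1 kb around the gene, Hoxb4, Hoxd8 and Hoxb3 had a peak (7.69% of Hox genes, against 11.3% of all protein-coding genes). With 50 kb there were 17 (43.6% of Hox genes, against 32.0%), and with 100 kb there were 18 (46.2%, against 43.9%). All 18 belonged to Hoxb and Hoxd: 9 of the 10 Hoxb genes and all 9 Hoxd genes. The Hoxb exception was Hoxb13, the gene set apart from the rest of its cluster, 122.0 kb from the nearest peak.

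**Figure D3:**
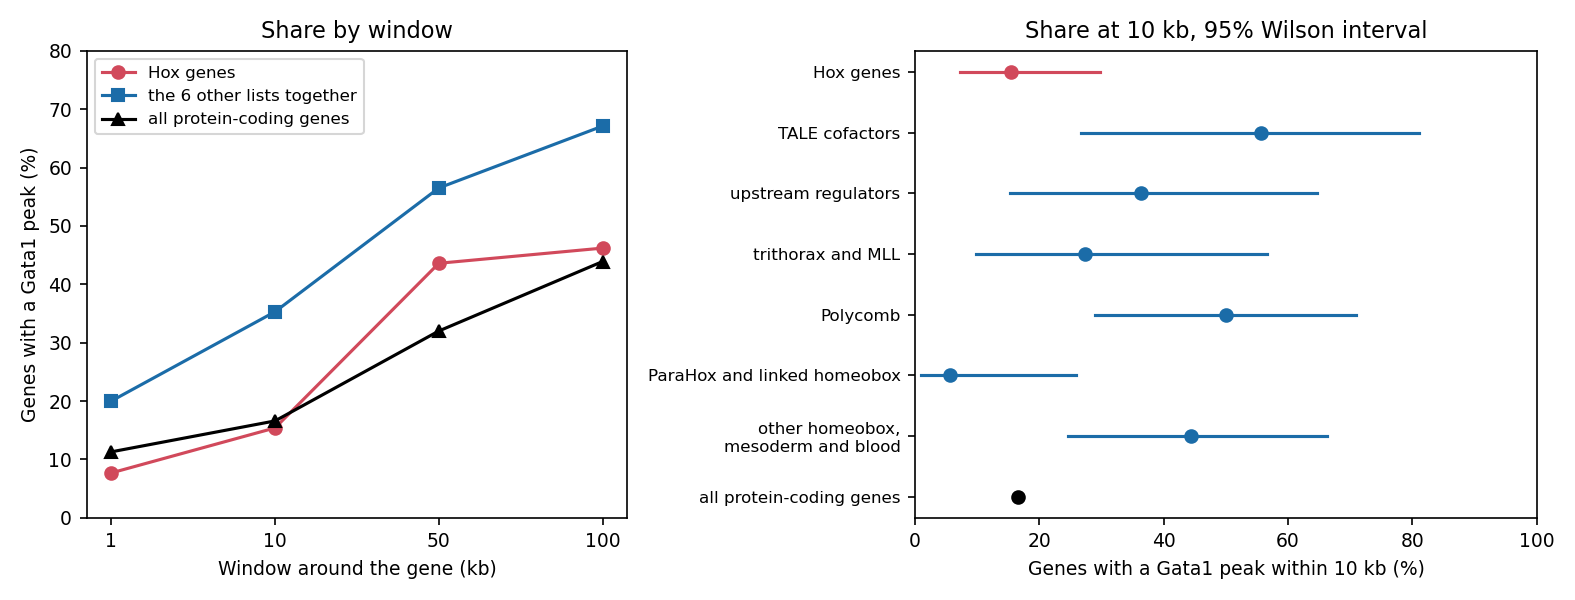
The left panel gives the percentage of genes with a Gata1 peak midpoint inside the gene or no further than 1, 10, 50 or 100 kb (x axis, not to scale) for Hox genes, the 6 other gene lists together and all protein-coding genes. The right panel gives the percentage at 10 kb for each list as a point with its 95% Wilson interval as a line, with Hox genes at 15.4% and all protein-coding genes at 16.6%.

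The distance to the nearest peak shows the difference between the clusters gene by gene. The median over the 39 Hox genes was 113.6 kb (quartiles 22.5 and 201.7 kb), against 135.0 kb (quartiles 28.9 and 468.0 kb) over the other 21753 protein-coding genes. The order of these medians rested on single peaks: the Hox median was 156.1 kb without the Hoxd8 peak and 169.9 kb without the Hoxb4 peak, both above 135.0 kb. The 39 distances were measured to 4 peaks in all, 1 per cluster, and so are not independent. In Hoxd the distances ran to 58.1 kb with a median of 17.1 kb, and in Hoxb to 122.0 kb with a median of 30.7 kb. In Hoxa they ran up to 210.0 kb with a median of 156.1 kb, and in Hoxc from 214.9 to 323.0 kb with a median of 267.4 kb. The ranges of Hoxa and Hoxc did not overlap each other or that of Hoxd, and the Hoxa range overlapped that of Hoxb only through Hoxb13.

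Among the Hoxb genes, values rose on both sides of the peak. Hoxb5 lay 12.5 kb from it, Hoxb6 17.0 kb, Hoxb7 28.5 kb, Hoxb8 33.3 kb and Hoxb9 42.0 kb on the lower-coordinate side. Hoxb2 lay 33.0 kb from it and Hoxb1, which is active early in the hindbrain, 47.1 kb on the other. In Hoxd, Hoxd4 lay 17.1 kb from the peak and Hoxd1 58.1 kb on the higher-coordinate side. Hoxd11, Hoxd12 and Hoxd13, known for their part in limb and digit development, lay at 17.9, 27.2 and 33.3 kb on the other. Hoxd4 was the nearer to a peak of the 2 paralogues printed without one, since Hoxb8 was 33.3 kb away.

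All 11 Hoxa genes had the same nearest peak, the one 106.6 kb below the cluster, so distance increased along the cluster towards Hoxa13. Hoxa2 lay 113.6 kb from it, Hoxa3 120.3 kb, Hoxa4 140.9 kb and Hoxa5 152.9 kb. Hoxa6 followed at 156.1 kb and Hoxa7 at 166.8 kb. The genes of Hoxa with the best known blood roles, Hoxa9 and Hoxa10, lay at 174.3 and 182.4 kb, and Hoxa11 and Hoxa13 at 193.3 and 210.0 kb. On the other side the next peak was 874 kb above the cluster. The 9 Hoxc genes likewise shared a peak, 214.9 kb above Hoxc4, and distance increased through Hoxc5 (234.4 kb), Hoxc6 (239.9 kb), Hoxc8 (257.5 kb) and Hoxc9 (267.4 kb). Hoxc10, Hoxc11, Hoxc12 and Hoxc13 lay at 279.9, 295.1, 313.2 and 323.0 kb. That peak lies inside Nfe2, the gene for an erythroid and megakaryocyte factor, which also has a second peak 0.159 kb outside it.

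**Figure D4:**
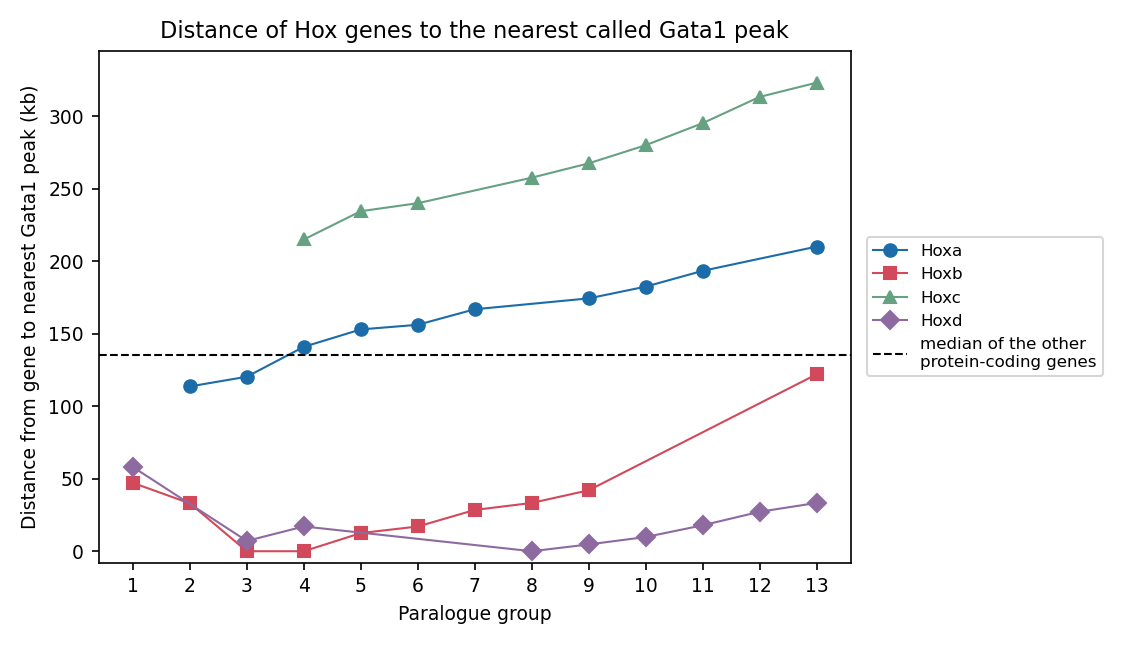
The x axis is the paralogue group and the y axis the distance in kb from the gene to the nearest called Gata1 peak midpoint, 0 meaning inside the gene, with 1 line per cluster and the median of the other protein-coding genes (135.0 kb) dashed. Hoxb and Hoxd reach 0 at Hoxb3, Hoxb4 and Hoxd8, while the lowest Hoxa gene drawn is at 113.6 kb and the lowest Hoxc gene at 214.9 kb. 1 Hoxa gene is not drawn.

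The genes with a peak within 10 kb were also counted by paralogue group in place of cluster. There were 2 of 8 in groups 1 to 3 (median distance 52.6 kb), 2 of 15 in groups 4 to 8 (140.9 kb) and 2 of 16 in groups 9 to 13 (178.3 kb). Distances in all of these ranged widely, to 120.3, 257.5 and 323.0 kb. Over all protein-coding genes the share within 10 kb was 16.6%, and the 6 Hox genes were served by the same 2 peaks. Groups 1 to 3 hold no gene of Hoxc, the cluster farthest from a peak. Paralogue group and cluster were therefore not separated in these medians. Of the paralogues of Hoxb4, Hoxd4 lay 17.1 kb from a peak, Hoxa4 140.9 kb and Hoxc4 214.9 kb. Of those of Hoxd8, Hoxb8 lay 33.3 kb and Hoxc8 257.5 kb from one. In neither group was a peak called within 10 kb of a second paralogue.

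The microRNA genes of the clusters were near peaks where their Hox neighbours were. Mir10a lay 1.34 kb below the midpoint of the Hoxb4 peak, between Hoxb5 and Hoxb4, and was the only 1 of the 6 within 10 kb of a peak. Mir10b, beside Hoxd4, lay 21.2 kb from the Hoxd8 peak and Mir196a-1, below Hoxb9, 53.4 kb from the Hoxb4 peak. Mir196b in Hoxa, Mir196a-2 in Hoxc and Mir615 in Hoxc lay at 181.3, 278.4 and 236.8 kb. The mature 5p sequences of the miR-10 and miR-196 families are shown because genes with the same seed lie in several clusters and a peak lies beside only 1 of them. Capitals mark the seed, bases 2 to 8, the part that pairs with targets.
mmu-miR-10a-5p: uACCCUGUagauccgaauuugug
mmu-miR-10b-5p: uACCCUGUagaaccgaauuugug
mmu-miR-196a-5p: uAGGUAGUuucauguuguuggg
mmu-miR-196b-5p: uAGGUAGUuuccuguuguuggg

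The pair of miR-10 sequences share 1 seed and the pair of miR-196 sequences another, so products with the miR-10 seed come from a gene 1.34 kb from a peak and from one 21.2 kb away. Of the 25 long noncoding RNA genes inside the clusters, Gm38462 held a peak and Hoxd3os1 lay 5.14 kb from one, both at the Hoxd8 peak. None of the 10 long noncoding RNA genes in the flanks lay within 10 kb of a peak. No share over all long noncoding RNA or microRNA genes was computed. The counts of both kinds therefore cannot be called high or low.

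Of 7 other protein-coding genes reaching into the flanks, Mtx2 held the peak of the Hoxd flank, and Skap1, an adaptor of T cell signalling, held one 141.7 kb above Hoxb1, outside the 100 kb limit. The homeobox genes Evx2 and Evx1, which flank Hoxd and Hoxa, lay 43.4 and 264.7 kb from a peak. Calcoco2, Ttll6 and Lnpk lay 74.5, 100 and 125.4 kb from one.

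More peaks lay beyond the flanks. Within 1000 kb of the cluster ends there were 5 peaks at Hoxa, 12 at Hoxb, 9 at Hoxc and 7 at Hoxd. These 33 peaks came to 3.89 per Mb (exact Poisson 95% limits 2.67 and 5.46), while all autosomes averaged 1.70 per Mb (1.65 to 1.75). Inside the clusters alone the density was 4.06 per Mb (0.492 to 14.7), from 2 peaks in 0.492 Mb, and with 100 kb flanks 2.32 per Mb (0.479 to 6.79), and both intervals hold the autosomal value. Per 100 protein-coding genes the region with 1000 kb flanks had 22.9 peaks (15.8 to 32.2), against 19.9 (19.3 to 20.5) on the autosomes. With 100 kb flanks there were 6.52 (1.34 to 19.1) and in the clusters alone 5.13 (0.621 to 18.5). By this measure the intervals of the clusters alone and with 100 kb flanks lie below the autosomal one, but the sides are not alike. The autosomal value counts peaks at any distance from a gene, while these regions stop at the cluster ends or at 100 kb. Genes that only reach into a flank are counted too, such as Skap1, whose peak lies outside. The measure therefore cannot show that the clusters hold few peaks. All intervals given here cover counting error and treat peaks as independent. As a plain measure of how often a stretch of this size holds a peak, 13.0% of 24010 autosomal tiles of 100 kb did, and the clusters span 96.9 to 174 kb.

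The peaks of that wider neighbourhood lay mostly in or beside other genes. Above Hoxc these were Nfe2 and, beyond it, Zfp385a, and below Hoxc they included the integrin gene Itgb7, the retinoic acid receptor gene Rarg, and Sp7. At Hoxa a peak lay inside Skap2, 266.5 kb from the cluster, and another 0.592 kb from Snx10. At Hoxb peaks lay 0.108 kb from Gip and 2.62 kb from Zfp652, and inside Fam117a, Sp2 and Tbkbp1. At Hoxd, 2 peaks lay in the gene-poor stretch above Mtx2, 296.8 and 576.3 kb from the cluster, inside the long noncoding RNA genes Gm46748 and Gm39857. The nearest protein-coding genes of these 2 lay 185 and 110.5 kb away. That stretch is known in mouse for carrying enhancers of Hoxd genes in limbs and other tissues.

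Genes that act on Hox genes or with Hox proteins (4 lists) and other homeobox genes outside the clusters (2 lists) made up 6 lists. They hold 85 genes, every one matched. The lists were chosen with earlier results of these data known, so their shares are descriptive only. A peak lay within 10 kb of 30 of the 85 genes (35.3%), served by 39 distinct peaks, against 16.6% of all protein-coding genes. Of the 9 TALE cofactors 5 had one (median distance 8.49 kb). Among them Pbx4 had 1 in the gene, and Meis1, Meis2 and Pbx2 1 each, at 5.12, 5.29 and 8.49 kb. Pbx3, Pknox1, Pknox2 and Meis3 had none, with the nearest at 328.1, 51.5, 14.6 and 108.1 kb.

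Polycomb genes, listed with the H3K27 demethylase genes and Ctcf, had a peak within 10 kb for 9 of 18 (median distance 13.8 kb). Phc2 had 2 at most 1 kb from the gene body, and among the others Ezh2, which encodes the methyltransferase of the silencing complex, Cbx7, Rnf2, Kdm6b and Ctcf had 1 each in the gene. Ezh1 and Ring1 had 1 at 1.09 and 7.502 kb. Of the 11 genes listed broadly under trithorax and MLL, 3 had a peak within 10 kb. Mllt3 had 2 at most 1 kb from the gene body, Dot1l, the H3K79 methyltransferase gene, had 1 at 3.25 kb and Men1 1 at 8.39 kb. The nearest peak to Kmt2a, the MLL gene, was 30.5 kb away. Kmt2d, Wdr5, Rbbp5, Ash2l, Dpy30, Psip1 and Kat6a had none within 10 kb either.

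Of 11 upstream regulators 4 had a peak within 10 kb. Rarg had 2 peaks, 1 in the gene and 1 that lies inside Itgb7. Cdx2, a homeobox activator of Hox genes, had 1 at 0.688 kb and Cdx1 had 1 at 3.33 kb. Rara, another retinoic acid receptor gene, had 1 at 7.24 kb. Cdx4, which is known to act on Hox genes in embryonic blood formation, lay 1017 kb from the nearest peak. Other homeobox genes outside the clusters fell into 2 lists. The ParaHox genes Cdx1, Cdx2 and Cdx4 are counted above with the upstream regulators, and not in these 2 lists. Of the 18 ParaHox and cluster-linked genes, En1 alone had a peak within 10 kb (5.56%, 0.988 to 25.8%), and the median distance was 139.7 kb, against 135.2 kb over all protein-coding genes. Of the 18 homeobox genes of mesoderm and blood 8 had one (44.4%, 24.6 to 66.3%), among them Msx1, Nkx2-3 and Zfhx3 with 2 each, and Hhex, a homeobox gene of early blood and endothelium, Msx2, Satb1 and Zeb2 with 1 each. These are counts beside a background, and differences between lists were not tested.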

How the data were processed

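The authors deposited 1 list of Gata1 peak positions (chromosome, start, end) for mouse cells sorted from day 5 embryoid bodies. It carries no score, height or p-value, and all 4135 intervals are 400 bp wide. Per the submitters' processing notes, Bowtie2 2.0.6, MACS2 2.0.10 and mm10 were used. The sources used here give neither their settings nor the threshold or use of the control, and depth is unknown. Per the labels' protocols, fixation used 1% formaldehyde and each ChIP 7 µg of antibody.

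Genes, starts, promoter stretches and miRNAs came from RefSeq tables of GRCm38.p6. Coordinates are 1-based. Autosomal and X entries placed below 3 Mb (340 genes), which carry scaffold coordinates, were removed. A peak belongs to a gene when its midpoint is inside the gene or at most 10 kb away. Of the 39 Hox genes, 22 matched a start entry. None matched, among others, Hoxa4, Hoxb2, Hoxb3, Hoxb5, Hoxb6, Hoxb7, Hoxb9, Hoxb13, Hoxc5, Hoxc6, Hoxc8, Hoxc9, Hoxc10, Hoxc11, Hoxc12 and Hoxc13. Motif shares and counts by start therefore leave out most Hoxb and Hoxc genes.

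With 1 library no test was made. Shares carry 95% Wilson and densities 95% exact Poisson intervals. Distance and window counts were checked on simulated peaks. The Hox family and the lists were chosen with earlier results of these data known. Within the family, every gene was taken by symbol and no peak position was used. The text names all Hox genes, other coding genes and miRNAs of the clusters and flanks, genes holding a peak there, and up to 8 genes with a peak per list; further genes were picked with their values known. Some genes that this rule names are not reported here. Python 3.11.15, numpy 2.4.6, pandas 2.3.3, scipy 1.17.1 and matplotlib 3.10.9 were used.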

Additional observations from a re-analysis of the deposited data

How the results depend on the processing

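The count of 6 Hox genes with a peak within 10 kb was 3 with a 1 kb window, 17 with 50 kb and 18 with 100 kb, and 3 when each peak served its nearest protein-coding gene alone (12.3% of all protein-coding genes were then called). Counting any overlap, or peaks within 1 kb of each other once, left it at 6. The count over all protein-coding genes, 3611, became 6973 with 50 kb and 9570 with 100 kb. The count of 30 genes in the other lists became 17, 48 and 57 with 1, 50 and 100 kb. The 3 peaks in clusters and flanks became 8 with 250 kb flanks and 2 with 50 kb flanks or none. Wider windows take in more peaks by construction. In alternatives chosen after seeing the data, the Hox count was 2 without the Hoxd8 peak, 4 without the Hoxb4 peak and 0 without both, and the median distance moved to 156.1, 169.9 and 182.4 kb, which are above the 135.0 kb of other protein-coding genes. No paired analysis was possible because the series lists 1 ChIP and 1 input library. A stricter peak threshold could not be tried, since the list has no score. A gene without a peak is one where none was called at a depth that is unknown.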
